A study of Mus musculus with 4 samples.

Results

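The libraries described here are those labelled MWT and CxWT, 2 of the 4 libraries of the study, and they were chosen by their labels as the pair that is both called wild type (wt). Per the labels, MWT holds RNA of the midbrain, diencephalon and hippocampus of wt mice and CxWT holds RNA of the cerebral cortex of wt mice. The other libraries carry the labels CxH and MH, for the same areas of Ids-ko mice, whose genotype is given as Ids-/-. All mice were of the strain C57BL/6 and 9 months old, and the wt mice were littermates of the Ids-ko mice. Each library was made from the pooled RNA of several mice, so that every condition is 1 library without replicates. A comparison of 2 libraries therefore describes those libraries and not the conditions, and no p-value is given. Of the 12700 genes in the count table, 12307 had 50 or more reads in MWT or in CxWT and entered the comparison. The 393 other genes are given by their reads only where they are named.

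Ids encodes iduronate 2-sulfatase, a lysosomal enzyme that removes sulfate groups from heparan sulfate and dermatan sulfate, and its loss causes Hunter syndrome (mucopolysaccharidosis type II). Undegraded glycosaminoglycans then collect in lysosomes of neurons and glia. Microglia, the resident phagocytes of the brain, respond to storage and injury with higher levels of pattern receptors, Fc receptors, lysosomal enzymes and complement components, and astrocytes respond with higher Gfap. Wt brain is the reference against which such changes are usually read.

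The labels were set against genes whose level they should fix, and went against them for both libraries. Ids had 155 reads per 1000000 aligned reads (RPM) in the library labelled MWT (95% exact interval 151 to 159.9) and 354 RPM in the library labelled CxWT (347 to 360.1). In the libraries labelled as Ids-ko it had 135 RPM in CxH (132 to 139) and 368 RPM in MH (362 to 374). The library labelled MWT thus sat with the library labelled CxH, and the library labelled CxWT with the library labelled MH. Which exons the knock-out removes is not given in the sources used here, and counts over a whole gene can include reads of a transcript that remains. All intervals and standard errors (SE) cover counting error only.

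The area labels of CxWT and MH also went against the cortical and thalamic marker lists. The 17 genes of a list of cortical projection neurons summed to 556 RPM in the library labelled CxWT and 491 RPM in MWT, against 2483 RPM in CxH and 2300 RPM in MH. Among these 17 genes, 14 were lower in both libraries labelled wt than in both libraries labelled Ids-ko. Slc17a7, the vesicular glutamate transporter of cortical neurons, had 152 RPM in CxWT, 108 RPM in MWT, 1359 RPM in CxH and 1239.9 RPM in MH. The thalamic list showed the opposite order, with 651 RPM in CxWT, 610 RPM in MWT, 93.3 RPM in CxH and 118 RPM in MH, and all 11 of its genes were higher in both libraries labelled wt. Tph2 of serotonin neurons, Slc6a3 of dopamine neurons and Hcrt of the hypothalamus had 23.1, 56.4 and 16.1 RPM in CxWT and 25.3, 49.7 and 10.8 RPM in MWT, and none of them passed 1 RPM in CxH or MH. The libraries labelled MWT and CxWT therefore both carried the markers of the midbrain and diencephalon, and the text keeps each label only as a name. Striatal genes summed to 631 RPM in CxWT, 598 RPM in MWT, 1519 RPM in CxH and 1254 RPM in MH, and hippocampal genes to 157, 127, 210 and 226 RPM. The study dissected the striatum and the hippocampus with the area M, so these lists were lower in the libraries that carried the thalamic markers of M, and the area markers did not all point one way. By Ids and by the cortical and thalamic lists, the label of MWT goes against its Ids level, that of CxWT against its area and that of MH against both, while that of CxH goes against neither. By the striatal and hippocampal lists, the area labels of CxH and MWT are not matched, while those of CxWT and MH are. Labels may have been moved among the libraries MWT, CxWT and MH, which was not tested, so the genotype and area that each ratio compares are in doubt.

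**Figure D1:**
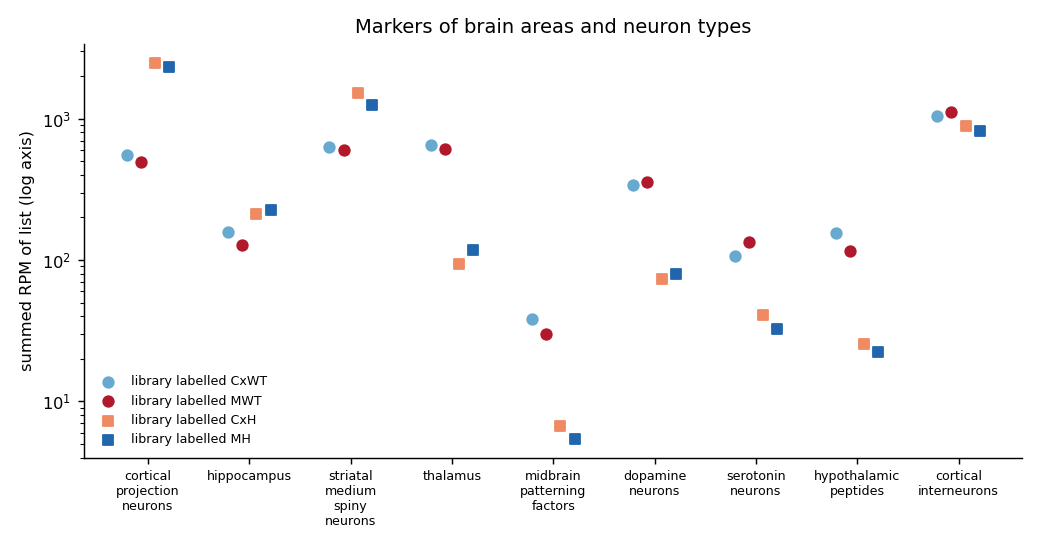
Summed level of 9 marker lists in the 4 libraries, in RPM on a log axis, with 1 point per library. The circles of the libraries labelled CxWT and MWT lie close together in each list, and both lie below the squares of CxH and MH for cortical projection neurons and above them for thalamus, midbrain, dopamine, serotonin and hypothalamic lists.

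The libraries held 16380080 reads on genes in MWT and 20266394 in CxWT, with a median of 567 and 686.5 reads per gene, and the floor of 3 reads was 0.104 RPM in MWT and 0.0892 RPM in CxWT. The other libraries held 22057807 (MH) and 23475080 (CxH) reads on genes. Reads on genes were 56.6% of the aligned reads in MWT and 60.3% in CxWT. Every ratio below sets the library labelled MWT over the library labelled CxWT, on the log2 scale of RPM, and each ± is the SE from counting. A gene is called higher or lower when its log2 ratio is at least 0.7 in size and a likelihood ratio test on Poisson counts gives a p-value under 0.05. After the correction described below, only the size threshold was applied to the corrected ratio, while the p-value stayed that of the uncorrected counts. Calls before and after correction therefore share that p-value and are not independent. The threshold of 50 reads made no step in the values. The 14 genes whose higher count was exactly 50 reads had log2 ratios from -0.90 to 0.77 with a median of -0.07, and the 17 genes with 49 reads, which were left out, had ratios from -0.81 to 0.83 with a median of -0.08.

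The ratios followed the base composition of the transcripts. Between the libraries labelled MWT and CxWT, the Spearman correlation of the log2 ratio with the GC content of the longest protein-coding transcript was -0.62 across 11959 genes, which share their 2 libraries and are not independent replicates. Genes in the decile with the lowest GC content (30.3% to 42.3%) had a median log2 ratio of 0.19, and those in the decile with the highest (58.5% to 72.8%) had a median of -0.55. In the pair CxH over MH the correlation had the other sign, 0.56. Stretches from the middle of the coding sequence of a gene among the 12 lowest ratios and a gene among the 12 highest show the contrast, with G and C in capitals. They were read 5′ to 3′ from NCBI37/mm9 transcripts and are given as coding bases 511 to 630 of Gpr27 (chromosome 6, 99642673 to 99643812, plus strand), of which 75% are G or C, and coding bases 152 to 271 of Cd84 (chromosome 1, 173769828 to 173820849, plus strand), of which 37.5% are.
Gpr27: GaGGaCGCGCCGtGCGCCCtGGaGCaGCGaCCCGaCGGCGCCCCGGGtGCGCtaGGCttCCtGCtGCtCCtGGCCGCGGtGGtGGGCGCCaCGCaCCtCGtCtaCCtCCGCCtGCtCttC
Cd84: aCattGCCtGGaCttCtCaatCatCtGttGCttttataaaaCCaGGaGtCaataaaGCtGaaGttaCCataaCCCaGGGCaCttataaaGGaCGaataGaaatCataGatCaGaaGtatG
Gpr27, an orphan receptor of neurons, had 194 reads in CxWT and 56 in MWT, a log2 ratio of -1.58 ± 0.22, while Cd84, an adhesion receptor of leukocytes, had 97 reads in CxWT and 249 in MWT, a log2 ratio of 1.58 ± 0.17. With a fitted trend on GC content and length subtracted (below, the correction), Gpr27 stood at -0.70 and Cd84 at 1.34. Of these 2 genes, picked by GC content, the low ratio moved by more than the high one.

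**Figure D2:**
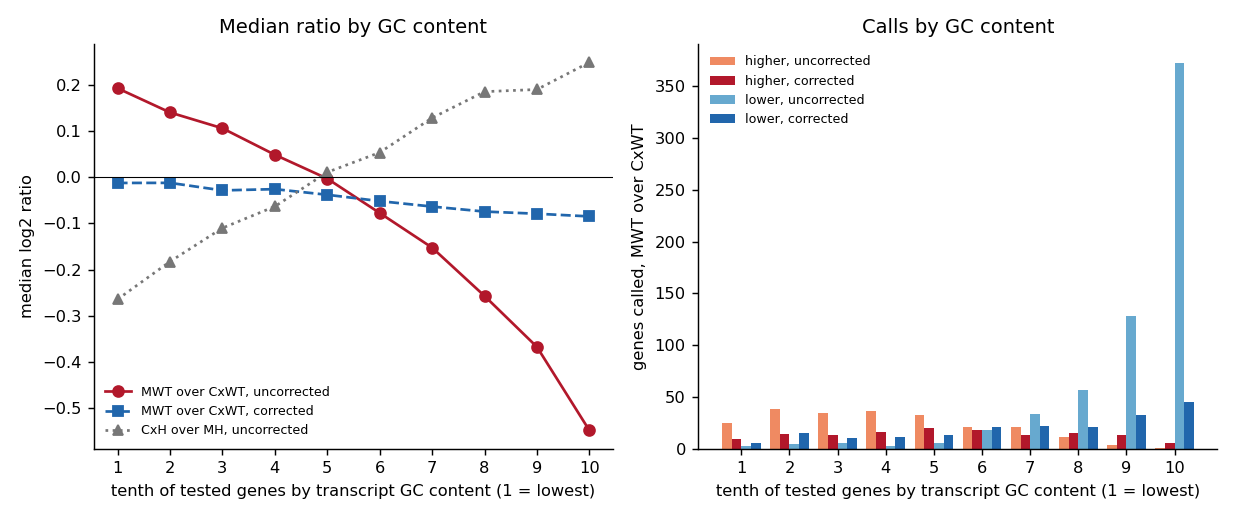
Left, median log2 ratio in deciles of the tested genes ordered by GC content of the transcript, for MWT over CxWT before and after correction and for CxH over MH. Right, number of genes called higher and lower in MWT over CxWT in each decile. The uncorrected medians fall from 0.19 to -0.55, the corrected medians stay between -0.01 and -0.08, and 372 of the genes called lower without correction lie in the decile with the highest GC content.

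Without correction 234 genes were called higher in the library labelled MWT, 1.9% of the genes tested, and 656 were called lower, 5.33%. The genes called lower had a median GC content of 59.2%, against 50.6% over all genes tested and 47.7% for those called higher. After the correction 137 genes were called higher, 1.15% of the 11959 genes with a GC value, and 197 were called lower, 1.65%. The 114 genes called higher under both rules were 48.7% of the uncorrected calls and 83.2% of the corrected calls. The 152 genes called lower under both rules were 23.2% and 77.2% of these sets, so that most of the genes called lower were not called after correction. The correction did not remove the trend in full. Corrected ratios still had a Spearman correlation of -0.09 with GC content. Genes called lower after correction had a median GC content of 54.6%, against 50.6% over all genes tested. Of these calls, 45 lay in the decile of highest GC content and 6 in the decile of lowest. Log2 ratios had a median size of 0.24 before and 0.16 after correction. With column totals of the counts as scaling, 43.8% of the calls were higher, against 26.3% with aligned reads, and this scaling moved the median of all ratios by 0.09. The spread left after correction exceeded counting error. Among the 4075 genes with 1000 or more reads in both libraries, the median SE was 0.044 and the median size of the corrected log2 ratio 0.12, so a small difference between these 2 libraries cannot be told apart from variation between pools.

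Ids had the lowest ratio among enzymes of glycosaminoglycan breakdown. With 11890 reads in CxWT and 4496 in MWT, its log2 ratio was -1.19 ± 0.025 (95% interval -1.24 to -1.14), a level 2.28 times lower in the library labelled MWT, and -1.34 after correction. Ids lies on chromosome X from 67596244 to 67618260. Its log2 ratio lay between -1.40 and -1.10 over the scalings, added count and corrections that were run for it. The 12 genes of the breakdown list that were in the table were all tested. Gusb, which encodes beta-glucuronidase, was the only gene of the list called higher, with 6.96 RPM in CxWT and 11.6 RPM in MWT, a log2 ratio of 0.74 ± 0.12. Hexa, which encodes a lysosomal hexosaminidase chain, had a ratio of 0.47 ± 0.055 and did not reach the threshold. Idua and Hgsnat, whose enzymes act beside Ids on heparan sulfate, had ratios of -0.04 and -0.06, and the median of the list was 0.00 before and 0.12 after correction.

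Genes beside Ids on the chromosome had ratios on both sides of 0. Of 19 other genes within 3 Mb that were tested, 2 were called without correction, Gabre with -1.98 ± 0.21 and Cetn2 with 0.90, and 2 with correction, Gabre at -1.81 and Xlr3c at -0.92. Over all genes 1.9% were called higher and 5.33% lower before correction, and 2 of 19 is too few to set against these shares. The median of the 19 genes was 0.06 before and -0.08 after correction. Gabre encodes the epsilon subunit of the GABA-A receptor, and Gabrq and Gabra3, named after their values were seen, which lie beside it and encode the theta and alpha3 subunits, had ratios of -0.31 ± 0.12 and -0.08 ± 0.031. Gabre had 252 reads in CxWT and 55 in MWT but only 7 in CxH and 15 in MH. Its level was therefore low in both libraries with high cortical markers and differed between the 2 libraries where these are lower.

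Genes of microglia and other phagocytes were among those called higher, in lists that were written with earlier results known. The 7 immune lists, for activated microglia, homeostatic microglia, phagocyte Fc receptors and oxidase, complement, cathepsins, antigen presentation and interferon response, together had 100 genes in the table, of which 95 were tested. Of these, 28 were called higher and 0 lower, both before and after correction, where over all genes 1.9% were higher and 5.33% lower before it and 1.15% and 1.65% after it. The same shares are the background for the calls of each list below. Of the 28 calls before correction, 4 (Aif1, Ch25h, Cst7 and H2-DMb1) had under 50 reads in CxWT and passed the filter on reads through MWT alone, which left 24. The median log2 ratio was 0.48 before and 0.44 after it, beside -0.05 and -0.04 over all genes. In bulk RNA, more cells of a type and more RNA per cell cannot be told apart. The lists differed among themselves. The medians before correction ran from 1.11 for Fc receptors and oxidase to -0.01 for antigen presentation.

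**Figure D3:**
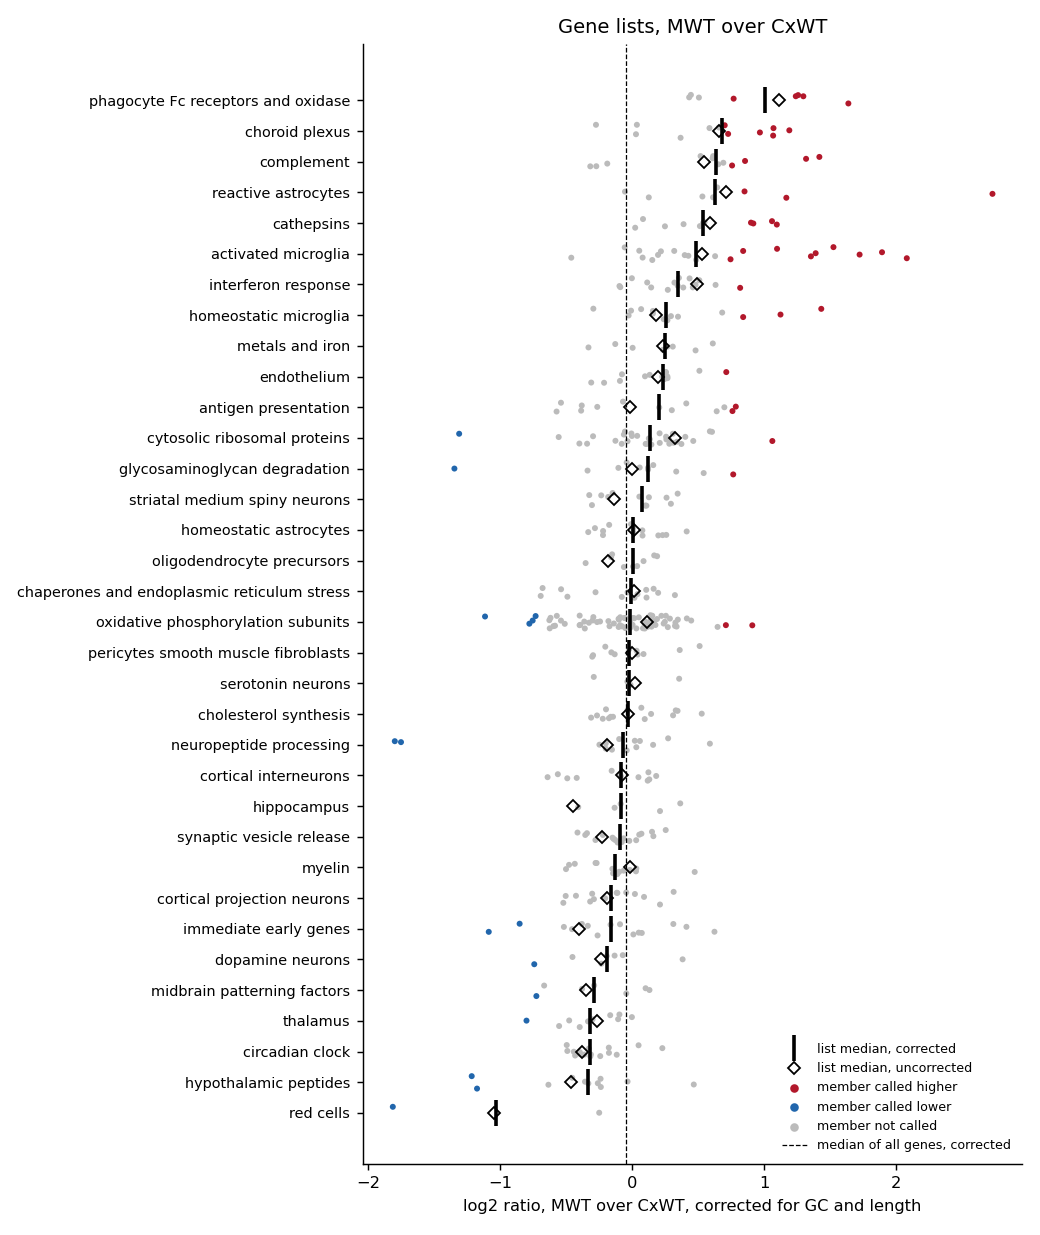
Log2 ratio of MWT over CxWT for each tested member of the gene lists, corrected for GC content and length, with the list median as a bar and the median before correction as a diamond. The lists of phagocyte, choroid plexus, complement, reactive astrocyte, cathepsin and activated microglia genes lie farthest to the right, and the dashed line marks the median of all genes at -0.04.

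Among surface receptors of microglia, Clec7a, a receptor for beta-glucan known to mark microglia around amyloid plaques, had 3 RPM in CxWT and 13.6 RPM in MWT, against 1.82 RPM in MH and 3.82 RPM in CxH. Its log2 ratio of 2.18 ± 0.16 was a level 4.53 times higher (95% interval 3.63 to 5.7) in the library labelled MWT, where it was higher than in any other library. Tyrobp, the signalling adaptor that Trem2 and other receptors share, had 7.38 RPM in CxWT and 21 RPM in MWT, a log2 ratio of 1.51 ± 0.11. Trem2, the lipid receptor itself, had 6.13 RPM in CxWT and 10.1 RPM in MWT, and its log2 ratio of 0.71 ± 0.13 was just past the threshold. Receptor and adaptor were thus both called, with a larger ratio for the adaptor.

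The table held 23 genes of the activated microglia list, of which 21 were tested, and 9 were called higher under both rules, at a median of 0.53 before and 0.49 after correction. Lyz2, the lysozyme of macrophages, had 19.8 RPM in CxWT, 77.4 RPM in MWT, 20.3 RPM in MH and 75.6 RPM in CxH, so the libraries with little Ids held nearly equal levels and those with much Ids held nearly equal lower levels. Its log2 ratio was 1.96 ± 0.064, but reads of Lyz2 and the neighbouring copy Lyz1 can be split by counting. Gpnmb, a glycoprotein of lysosome-rich phagocytes, had 4.13 RPM in CxWT and 12 RPM in MWT (1.54 ± 0.14). Ch25h, which makes 25-hydroxycholesterol, had 14 reads in CxWT and 58 in MWT (2.27 ± 0.43). The chemokine gene Ccl6 (1.70 ± 0.23), the galectin gene Lgals3 (1.06 ± 0.23) and the cystatin gene Cst7 (0.997 ± 0.29) were called as well. Without Ch25h and Cst7, which entered only through MWT, 7 calls were left. Other genes of the same state did not differ by as much as the threshold. Apoe had 658 RPM in CxWT and 667 RPM in MWT (0.02 ± 0.014), Axl had -0.11 ± 0.057, Spp1 0.53 ± 0.072 and Cd68 0.52 ± 0.098. Ccl3 and Cd52, with 12 and 18 reads in CxWT and 44 and 45 in MWT, fell below 50 reads and were not tested.

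Genes of homeostatic microglia gave fewer calls, and whether they differ from those of activated microglia was not tested. All 14 genes in the table were tested, and 2 were called higher before correction (Fcrls and Aif1) and 3 after it (with Olfml3), at a median of 0.18 and 0.25. Fcrls, an Fc receptor-like gene of resident microglia, had 16.4 RPM in CxWT and 48.3 RPM in MWT (1.56 ± 0.073). In contrast, the purinergic receptor gene P2ry12 had 28.1 and 36.5 RPM (0.37 ± 0.065), the fractalkine receptor gene Cx3cr1 47.5 and 57.7 RPM (0.28 ± 0.05), the growth factor receptor gene Csf1r 62.4 and 65.9 RPM (0.08 ± 0.046) and Tmem119 20.6 and 17.9 RPM (-0.21 ± 0.084). These receptors of resident microglia were therefore at similar levels in both libraries while Lyz2 and Clec7a differed several fold.

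Fc receptors and lytic genes formed the list with the highest median. The table held 10 of its genes, 8 were tested and 5 were called higher under both rules. Fcgr2b, the inhibitory receptor for IgG, had 2.14 RPM in CxWT and 7.7 RPM in MWT (1.85 ± 0.2), and the activating receptor genes Fcgr1 (1.24 ± 0.16) and Fcgr3 (0.98 ± 0.083) were called as well. Mpeg1, which encodes the pore-forming perforin-2 of macrophages, had 59.6 RPM in CxWT, 153 RPM in MWT, 62.9 RPM in MH and 125 RPM in CxH (1.36 ± 0.039). The shared Fc receptor chain Fcer1g (0.69 ± 0.12) and the NADPH oxidase subunits Ncf1 (0.37 ± 0.15) and Cyba (0.36 ± 0.2) did not reach the threshold. Fcgr4 and Ncf4 were below 50 reads.

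A stretch of chromosome 1 held several of these receptors. Between the start of Fcgr2b and the end of Slamf9, at chr1:172890689-174408706, 40 genes were in the table and 37 were tested. The 6 called higher, before and after correction, were Fcgr2b, Fcgr3 and the genes Ly9, Cd48, Cd84 and Slamf9 of the SLAM family, adhesion receptors through which leukocytes contact each other. The stretch was chosen after these values were seen and is bounded by called genes, so its count is a description. Ly9, Cd48 and Slamf9 had under 50 reads in CxWT and entered only through MWT, where they are high. Ly9 had 47 reads in CxWT and 174 in MWT (2.104 ± 0.24), Cd48 38 and 116 (1.83 ± 0.27) and Slamf9 32 and 106 (1.94 ± 0.29). In the same stretch 1 gene was called lower under each rule, Nectin4 at -0.82 before correction and Ufc1 at -0.74 after it. The glial potassium channel gene Kcnj10 had 0.00, and the median of the 37 genes was -0.03, with single ratios on both sides of 0.

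Lysosomal proteases differed by member. All 11 cathepsin genes in the table were tested, and Ctss, Ctsc, Ctsl and Ctsd were called higher under both rules. Ctss, the cathepsin of microglia, had 41.9 RPM in CxWT and 107 RPM in MWT (1.36 ± 0.046), and Ctsd, an aspartic protease found in all cells, had 376 and 621 RPM (0.72 ± 0.017). Ctsb, although abundant, had 580 and 685 RPM (0.24 ± 0.015), and Ctsf had -0.17 ± 0.062. The median of the list was 0.59 before and 0.54 after correction.

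In the complement list all 12 genes in the table were tested, and 4 were called under each rule, at a median of 0.54 before and 0.63 after correction. C1qa, C1qb and C1qc encode the chains of C1q, the recognition unit of the classical pathway. C1qa had 60.4 RPM in CxWT and 128 RPM in MWT (1.09 ± 0.04), C1qb 35.7 and 59.5 RPM (0.74 ± 0.054) and C1qc 42.5 and 61.8 RPM (0.54 ± 0.051), so that only the last of the chains stayed under the threshold. C3ar1, the receptor for the C3a fragment, had 2.89 and 8.57 RPM (1.57 ± 0.17). C4b was called only after correction (0.48 before, 0.76 after). Reads of C4b can be shared with its neighbouring copy.

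Antigen presentation genes split. The table held 14, of which 13 were tested, and 2 were called higher under each rule. H2-T23, a non-classical class I gene, had 3 and 5.22 RPM (0.80 ± 0.19) and was called under both. H2-DMb1, which encodes a chain of the class II peptide loader, was called before correction only, with 1.37 and 2.25 RPM (0.71 ± 0.28, then 0.70 and just short of the threshold), and the immunoproteasome gene Psmb8 after it only (0.65, then 0.76). The class II genes Cd74 (-0.67 ± 0.14), H2-Ab1 (-0.52 ± 0.21) and H2-Aa (-0.39 ± 0.17) had ratios below 0 without reaching the threshold. Reads of H2-T23 and other class I genes can be split among similar copies. Of the 16 interferon response genes, all tested, 15 had a ratio above 0 but only Bst2 (0.88 ± 0.24) and Isg15 (0.85 ± 0.24) were called, and Isg15 stood at 0.63 after correction, short of the threshold. With 100 or more reads in either library 0 of these genes were called, and under column totals 5. Ifit2, with 14.6 RPM in CxWT and 15.5 RPM in MWT, was at a similar level in both libraries.

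**Figure D4:**
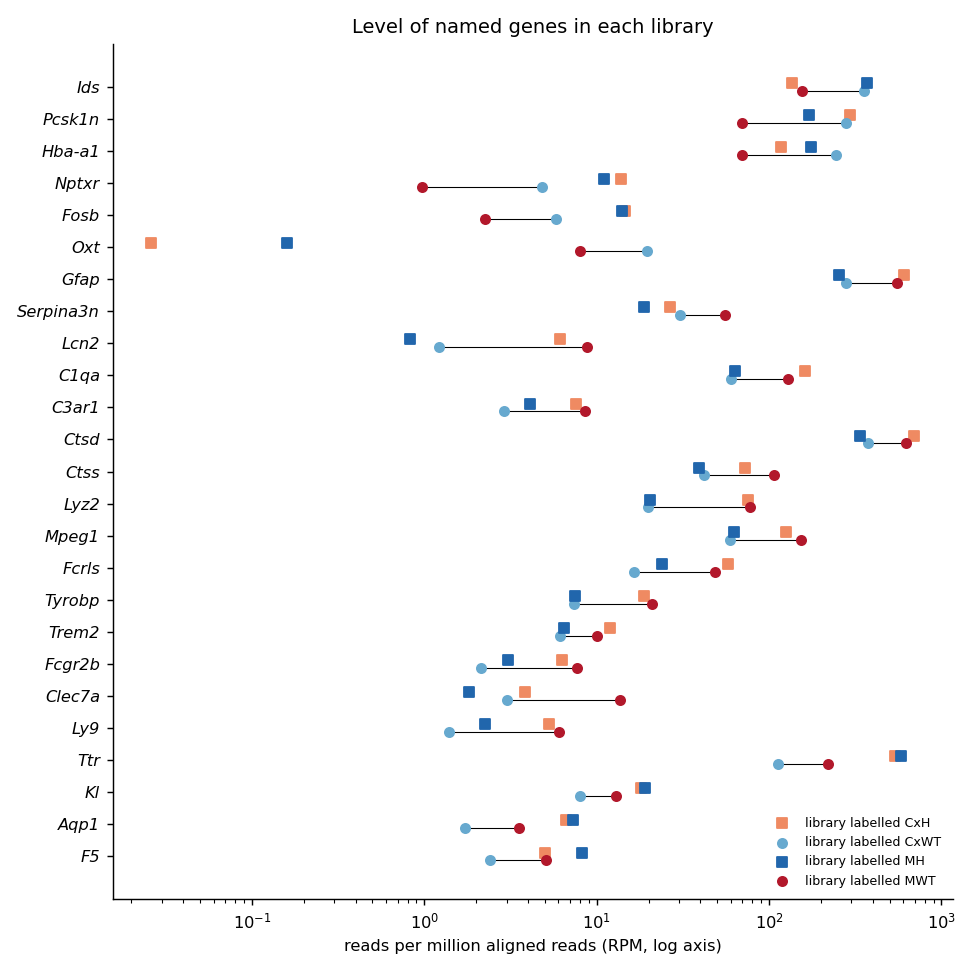
Level of 25 named genes in the 4 libraries, in RPM on a log axis, with a line between the libraries labelled CxWT and MWT. For Lyz2, Ctss, Mpeg1 and Gfap the library labelled MWT lies near CxH and the library labelled CxWT near MH, while for Ttr, Nptxr, Fosb and Oxt both circles lie apart from the squares. Oxt in CxH is below the floor of 3 reads.

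Further innate immune genes outside the lists are named because they were called, so their direction was fixed by the choice. The Toll-like receptor genes Tlr2 (0.86 ± 0.17), Tlr7 (0.93 ± 0.16) and Tlr13 (1.13 ± 0.14), the co-receptor gene Cd14 (0.89 ± 0.22) and the phosphatase gene Ptpn6 (0.98 ± 0.17) were called higher under both rules. Unc93b1, which carries Toll-like receptors to endolysosomes, had 0.53 ± 0.1 and was called only after correction, at 0.79. Syk and Plcg2, the kinase and the lipase that act downstream of Tyrobp, were likewise called only after correction, at 0.74 and 0.72. Hpse, which encodes the endoglycosidase heparanase that cuts heparan sulfate, had 65 reads in CxWT, 127 in MWT, 71 in MH and 166 in CxH (1.18 ± 0.22).

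Reactive astrocyte genes were led by Lcn2, the secreted siderophore-binding lipocalin, which had the highest ratio of all called genes with 100 or more reads in either library. Lcn2, on chromosome 2 from 32240153 to 32243317, had 41 reads in CxWT, 253 in MWT, 31 in MH and 236 in CxH. With under 50 reads in CxWT it entered only through MWT, where it is high. Its log2 ratio of 2.84 ± 0.24 was a level 7.17 times higher (95% interval 5.14 to 10.2) and stood at 2.73 after correction. Gfap, the intermediate filament of astrocytes, had 280 RPM in CxWT, 555 RPM in MWT, 253 RPM in MH and 603 RPM in CxH (0.99 ± 0.019). Serpina3n, a protease inhibitor, had 30.3 and 55.6 RPM (0.87 ± 0.058), and Osmr, the oncostatin M receptor gene, was called before correction (0.72 ± 0.13) but not after (0.61). These were the 4 genes called among the 8 tested of 9 in the table, and without Lcn2 3 calls were left before correction and 2 after it. Vim, another filament gene, had 25.3 and 26.2 RPM (0.05 ± 0.072). Of 14 homeostatic astrocyte genes none was called under either rule, among them the glutamate transporter genes Slc1a2 (0.22 ± 0.012) and Slc1a3 (0.16 ± 0.019) and the connexin gene Gja1 (-0.04 ± 0.026), and their median was 0.01.

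Choroid plexus genes were the other list with many higher calls. The choroid plexus is the epithelium that secretes cerebrospinal fluid in the ventricles. All 12 genes in the table were tested and 6 were called higher under each rule, at a median of 0.66 before and 0.68 after correction. Ttr, the transthyretin gene, had 113 RPM in CxWT and 221 RPM in MWT but 583 RPM in MH and 537 RPM in CxH (0.97 ± 0.03, and 0.66 after correction, when it was no longer called). Kcne2 (1.23 ± 0.22), F5 (1.09 ± 0.2), Aqp1 (1.04 ± 0.24), Slc4a5 (0.95 ± 0.29) and Kl (0.70 ± 0.12), which encode a channel subunit, a clotting factor, a water channel, a bicarbonate transporter and the Klotho protein, were called under both rules. Slc4a5 had under 50 reads in CxWT and entered only through MWT, which left 5 calls under each rule. The summed level of the list was 398 RPM in CxWT, 623 RPM in MWT, 837 RPM in CxH and 1004 RPM in MH. The libraries labelled CxH and MH were the highest here, unlike for Lyz2 and Mpeg1, where MWT and CxH were. Cldn2, a claudin of this epithelium singled out after its values were seen, had 43 and 73 reads (0.98 ± 0.28). It too entered only through MWT, where it is high. The part of the choroid plexus in the other differences was not tested.

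Of vascular genes, 1 of 14 of the endothelial list was called, the amino acid transporter gene Slc38a5 (0.72 ± 0.22), and 0 of 11 of the pericyte, smooth muscle and fibroblast list, whose medians were 0.19 and 0.00 before correction. Haemoglobin went the other way. Hba-a1, an alpha-globin gene of red cells, had 8261 reads in CxWT, 2028 in MWT, 6566 in MH and 4539 in CxH, a log2 ratio of -1.81 ± 0.036 before and -1.81 after correction. The library labelled MWT was the lowest of the 4. Hba-a1 has a near-identical copy, so its count is uncertain, and Alas2, the other of the 2 red cell genes in the table, had -0.28 ± 0.13.

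At the lower end, the 12 genes of lowest ratio among called genes with 100 or more reads were Nptxr, Ier5l, Pcsk1n, Gabre, Tmem181b-ps, Hba-a1, Amn, Egr4, Ptms, Slc16a11, Gpr27 and Tmem121. Several of them have a high GC content, and their ratios moved with the correction, for Ier5l from -2.11 to -1.17, for Ptms from -1.65 to -1.08 and for Tmem121 from -1.56 to -0.99, without loss of the call. Nptxr, the receptor of neuronal pentraxins at excitatory synapses, had 162 reads in CxWT and 28 in MWT, a log2 ratio of -2.32 ± 0.30 and -1.80 after correction, and entered through CxWT alone, where it is high. Pcsk1n encodes proSAAS, the inhibitor of the prohormone convertase PC1. With 280 RPM in CxWT, 69.5 RPM in MWT, 170 RPM in MH and 294 RPM in CxH, it stood lower in MWT than in any other library, with a log2 ratio of -2.01 ± 0.035 (-1.75 after correction). Tmem181b-ps, a copy in a family of near-identical genes on chromosome 17, had 357 reads in CxWT, 83 in MWT, 602 in MH and 133 in CxH, a log2 ratio of -1.89 ± 0.18 that is uncertain because of the copies. The copy Tmem181c-ps, named after its values were seen, had -0.75 ± 0.14.

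After correction the 12 lowest genes included 7 with no place among the 12 lowest before it. These were Gkn3 (-1.60), Pura (-1.55), Tsfm (-1.52), Cacng8 (-1.48), Chchd2 (-1.48), Wdr89 (-1.46) and Kcnmb4 (-1.41). The filter asked for reads in either library, so a gene of this order could enter through CxWT alone, where it is high. Chchd2, a mitochondrial protein gene, had 5532 reads in CxWT and 1860 in MWT and 4246 and 4444 in CxH and MH, and Tsfm, a mitochondrial elongation factor gene, had 389 reads in CxWT and 133 in MWT, with 326 and 313 in CxH and MH. Kcnmb4, the beta4 subunit of the BK potassium channel, had 987 and 394 reads. The other side of the corrected order held 12 genes of which 8 were already among the 12 highest before it, and Gpnmb, Fcrls, C3ar1 and Kcnip2 were the others. Kcnip2, a partner of Kv4 channels, had 213 reads in CxWT and 414 in MWT (1.18 ± 0.12, and 1.40 after correction).

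Among the remaining genes with the highest ratios, Tmem252 had 38 reads in CxWT and 104 in MWT (1.67 ± 0.27), so that it entered through MWT alone, the ribosomal paralog Rps27l 86 and 228 (1.62 ± 0.18) and Bcl2a1d, an anti-apoptotic gene of leukocytes with near-identical copies, 53 and 136 (1.58 ± 0.23). Amn and Slc16a11 at the other end had 128 and 32 reads (-1.78 ± 0.29) and 416 and 120 reads (-1.58 ± 0.15), and Amn entered through CxWT alone. Ptgs2, the inducible cyclooxygenase gene, singled out after its values were seen, was called higher in MWT with 83 and 209 reads (1.55 ± 0.19), although CxH with 446 and MH with 539 reads held more.

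Hypothalamic peptide genes are expressed in small groups of neurons that control hormone release, feeding and arousal. The table held 15, of which 11 were tested, and 2 were called lower under both rules. Oxt, the oxytocin gene, had 19.6 RPM in CxWT, 7.98 RPM in MWT and under 0.2 RPM in CxH and MH (-1.29 ± 0.11). Cartpt had 50.4 and 25.9 RPM (-0.96 ± 0.063). Avp (-0.65 ± 0.11), Hcrt (-0.58 ± 0.1) and Pomc (-0.46 ± 0.26) had ratios below 0 and Trh (0.46 ± 0.074) and Nts (0.41 ± 0.13) above 0, none of them called. The median was -0.46 before and -0.33 after correction. Some transcription factor genes were picked because they were called lower under both rules, which shows nothing of such genes in general. They were Otp with 75 reads in CxWT and 19 in MWT (-1.77 ± 0.37), Foxb1 with 190 and 70 (-1.22 ± 0.2), Shox2 with 633 and 288 (-0.92 ± 0.1) and Lhx5 with 269 and 115 (-1.01 ± 0.16). Otp entered through CxWT alone, where it is high. None of these 4 picked genes had over 40 reads in CxH or MH.

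The other lists of brain areas gave few calls. In the thalamic list Lef1 was called lower (-0.84 ± 0.13) and 10 of 11 genes had a ratio below 0, with a median of -0.27. In the midbrain list of 7 tested genes En1 was called lower, with 8.12 RPM in CxWT and 4.35 RPM in MWT (-0.90 ± 0.16). Of the 7 dopamine neuron genes none was called before correction, and Th had 39.8 and 32.5 RPM (-0.29 ± 0.061). Nr4a2 was called lower after correction, at -0.74. None of the 4 serotonin neuron genes tested, the 12 striatal genes or the 11 tested genes of cortical interneurons was called. Of 15 tested cortical projection genes Slc30a3 was called before correction only (-0.93 ± 0.13), and of 6 tested hippocampal genes Zbtb20 (-1.09 ± 0.16), for which no GC value was had. Most markers of neuron types thus differed by less than the threshold between these libraries.

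Genes induced by neuronal activity gave 2 lower calls. Of 16 immediate early genes 15 were tested and 2 were called lower under both rules, at a median of -0.41 before and -0.16 after correction. A ratio above 0 was had by 5 of the 15 genes before correction and 6 after it, against 5459 of 12307 and 5084 of 11959 over all genes. Fosb had 5.8 RPM in CxWT and 2.25 RPM in MWT (-1.37 ± 0.21), against 14.5 RPM in CxH and 14 RPM in MH. Egr4 had 5.86 and 1.8 RPM (-1.71 ± 0.22, and -0.85 after correction). Fos (-0.43 ± 0.1), Arc (-0.57 ± 0.057) and Junb (-0.61 ± 0.13) were not called, and Npas4 had a ratio above 0 (0.33 ± 0.12). Egr3, outside the list and chosen after its values were seen, had 231 and 77 reads (-1.37 ± 0.19).

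Several lists kept no call after the correction. Of 16 circadian clock genes, all tested, Per1 (-0.82 ± 0.058), Nr1d1 (-0.76 ± 0.041) and Per2 (-0.73 ± 0.086) were called lower before it and none after it, when they stood at -0.33, -0.49 and -0.49. The median of the list was -0.38 before and -0.32 after correction, against -0.05 and -0.04 for all genes tested, and 1 gene had a ratio above 0 before it and 2 after it. Of 18 genes of synaptic vesicle release, Bsn, a scaffold of the active zone, was called lower at -0.75 ± 0.031 and stood at -0.08 after correction, while Snap25 had 0.41 ± 0.011 and then 0.15. The list of neuropeptide processing had 3 lower calls of 14 before correction and 2 after it, Nptxr and Pcsk1n, as Vgf moved from -0.85 to -0.15. The convertases themselves were at similar levels, with 0.08 ± 0.086 for Pcsk1 and -0.19 ± 0.025 for Pcsk2, and Cpe, the carboxypeptidase, had 0.36 ± 0.0092.

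Single calls in a list, as in the thalamic, cortical projection, myelin and cholesterol lists, stand beside the 5.33% of all genes called lower before correction and are not read as a result about the list. Of 15 myelin genes 1 was called lower before correction, Mag (-0.80 ± 0.026), and none of the 14 with a GC value after it. Mbp, which encodes myelin basic protein, had -0.55 ± 0.0055 and Mal 0.07 ± 0.02, and after correction 3 of the 14 genes had a ratio above 0, at a median of -0.13. None of 9 oligodendrocyte precursor genes was called. Of 14 tested chaperone genes Hspa1a (-1.11 ± 0.13) and Creld2 (-0.70 ± 0.14) were called before correction and none after it, when they stood at -0.69 and -0.68, just short of the threshold. Of 16 cholesterol synthesis genes Srebf2 was called lower before correction (-0.71 ± 0.032), and of the 8 genes of metals and iron none was called, though Fth1, the ferritin heavy chain gene, had 726 and 1164 RPM (0.68 ± 0.012). Of 73 tested subunits of oxidative phosphorylation 5 were called higher before correction, led by Ndufa6 (1.19 ± 0.06) and Ndufs4 (0.98 ± 0.035). After correction 2 were higher, Ndufa6 and Uqcrq, and 4 were lower, among them Atp5l at -1.11, and the median was -0.01 with 35 of 72 genes above 0. With correction for GC content alone the higher calls exceeded the lower by 4, so the change in balance came with the length term and rests on few calls. Of 34 ribosomal protein genes 3 were called higher and 1, Rps21 (-0.91 ± 0.19), lower before correction, and 1 each after it, at medians of 0.32 and 0.13. Of 57 small RNA genes in the table only 4 reached 50 reads, and none was called.

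The ratio of CxH over MH shares no library with the ratio of MWT over CxWT and also sets a library with little Ids over a library with much Ids. In CxH over MH, 264 genes were called higher (2.14%) and 118 lower (0.958%) before correction, and 138 (1.15%) and 102 (0.852%) after it. Ids had -1.44 ± 0.023 there. Of the 11829 genes tested in both after correction, 59 were called higher in both, 44.7% of the higher calls of MWT over CxWT and 46.8% of those of CxH over MH. The number called lower in both was 22, which was 12.02% and 23.9% of the lower calls, and Ids, Hba-a1, Gkn3, Cacng8, Slc16a11, Tmem181b-ps, Tmem181c-ps and Xlr3c were among them. Only Kcne2 and Slc4a5, both of the choroid plexus list, were called higher in MWT over CxWT and lower in CxH over MH, and no gene the other way. The lists chosen for microglia had known values when they were written, so these counts are a description.

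For the members named above the values stood side by side as follows. In CxH over MH, Lcn2 had a log2 ratio of 2.89, Lyz2 1.89, Clec7a 1.07, Gpnmb 1.47, Tyrobp 1.35, Gfap 1.25, C1qa 1.35 and Ly9 1.24. The 7 immune lists together had 35 genes called higher there before correction and 28 after it, with 0 lower, at medians of 0.50 and 0.36. The list medians were 0.89 for activated microglia, 0.97 for Fc receptors and oxidase, 0.65 for cathepsins and 0.63 for complement. Interferon genes had a median of 0.10 there, against 0.49 in MWT over CxWT. The choroid plexus list had 0 higher and 3 lower calls at a median of -0.29. Nptxr (0.34) and Pcsk1n (0.79) had ratios above 0 in CxH over MH and far below 0 in MWT over CxWT, and Fosb had 0.06. Clec7a and Fcgr2b had larger ratios in MWT over CxWT than in CxH over MH, Lgals3 and Cst7 smaller ones, and none of these differences could be tested with 1 library each.

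**Figure D5:**
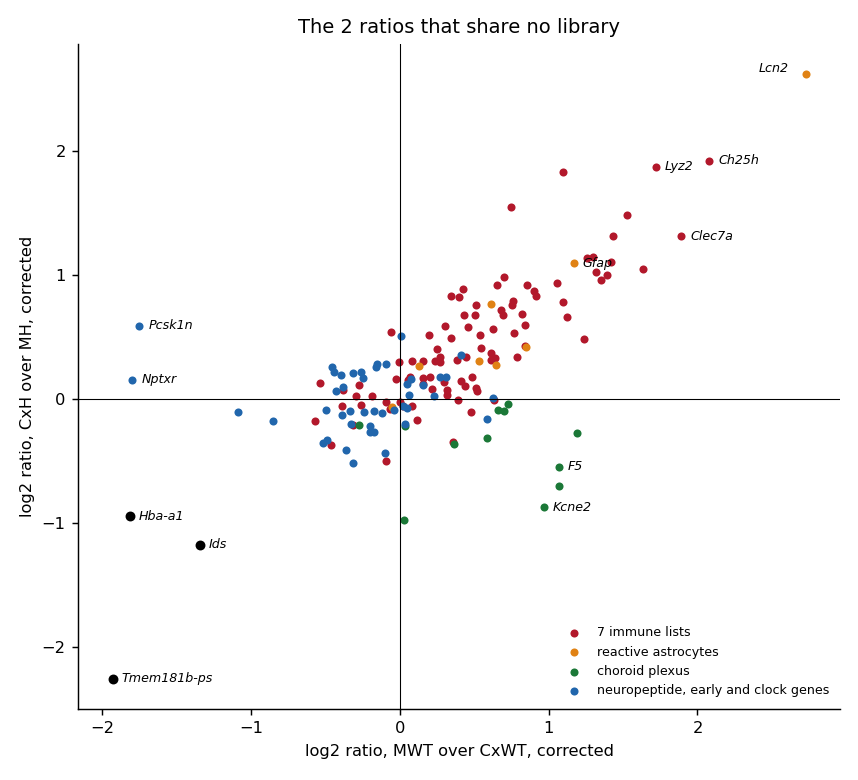
Log2 ratio of MWT over CxWT (x) against CxH over MH (y), both corrected for GC content and length, for members of the immune, astrocyte, choroid plexus and neuronal lists and 3 further genes. Most immune and astrocyte genes lie in the upper right, Ids, Hba-a1 and Tmem181b-ps in the lower left, choroid plexus genes in the lower right, and Pcsk1n and Nptxr on the left above 0.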

How the data were processed

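Total RNA of pooled brain areas was enriched for mRNA and sequenced on a SOLiD 3 Plus instrument. The authors used PASS 2.10 to place the reads on NCBI37/mm9, allowing 2 mismatches for a best hit, kept reads that hit a single gene and genes with coverage of over 50% of the length, and deposited raw counts per gene. The gene annotation and the strand used in counting are not given in the sources used here, so reads of overlapping genes cannot be told apart.

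RPM were the deposited counts over the aligned reads of a library, and a count of 0 was set to 1 for ratios only. Symbols came from Entrez identifiers through RefSeq for 12690 genes, and positions from GENCODE vM1 for 12444. The longest protein-coding transcript gave GC content and length of 12252 genes. Log2 ratios were corrected by lowess (fraction 0.3) on GC content, then length, over the 10944 genes with 100 or more reads in both libraries. The likelihood ratio test and the cut-offs of 0.05 and 0.7 were taken from the study, but applied to ratios scaled by aligned reads and with a minimum of 50 reads, while the study defines its ratio on numbers of reads. A quasi-likelihood test could not be fitted with 1 library per group.

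Genes were named by this rule: Ids, the 12 called genes of highest and the 12 of lowest ratio with 100 or more reads in either library, before and after correction, and members of 35 lists. Other genes are said to be chosen after their values were seen. The libraries, lists and rules were chosen with earlier results of these data known. Norad and Rnpc3, the genes of highest and lowest GC content with 1000 reads in both libraries, were part of the rule, with log2 ratios of 0.11 and 0.31 before and 0.63 and 0.04 after correction. The GC content of Norad was taken from a protein-coding transcript of 339 bases, which may not be the RNA that was counted. The ratio of Norad after correction is therefore uncertain. The alternatives were column totals, TMM factors (edgeR 4.0.16) and DESeq2 1.42.0 size factors as scaling, other filters and thresholds, an exact test that assumes variation between pools, adjusted p-values, 0.5 added to counts, and the correction. The steps were tested on simulated data. Versions were R 4.3.3, statsmodels 0.14.6, scipy 1.17.1, pandas 2.3.3, numpy 2.4.6, matplotlib 3.10.9 and Python 3.11.15. Some members of the lists are not reported here by name, though all entered the counts and medians.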

Additional observations from a re-analysis of the deposited data

Results flagged for a closer look

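The libraries labelled Cx over those labelled M ran opposite ways in the genotypes as labelled. For Ids, the log2 ratio was 1.19 in CxWT over MWT and -1.44 in CxH over MH. The list medians were -0.59 and 0.65 for cathepsins, -0.53 and 0.89 for activated microglia, -1.11 and 0.97 for phagocyte Fc receptors and oxidase, and -0.54 and 0.63 for complement. They were singled out because both values passed 0.5 in size with opposite signs. The difference between the genotypes was not tested, since each side is 1 library against 1, and the labels of MWT and MH go against their Ids levels. The area labels are also in doubt, as cortical projection genes summed to 556 RPM in CxWT and 2300 RPM in MH and thalamic genes to 651 and 118 RPM. Striatal genes (631 and 1254 RPM) and hippocampal genes (157 and 226 RPM) went with the labels of CxWT and MH.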

How the results depend on the processing

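The study dissected each brain into both areas, so by the labels MWT and CxWT come from the same mice. Each library is a pool, so the mice could not be paired. No replicate could be left out, because each condition is 1 library. Against 234 genes called higher and 656 lower, a threshold of 1 on the log2 ratio gave 74 and 167 (with list counts of 3 for choroid plexus against 6, 1 for reactive astrocytes against 4, 2 for complement against 4, and 0 for antigen presentation and for interferon response against 2 each), an assumed variation of 0.2 between pools gave 110 and 349, and the correction for GC content and length gave 137 and 197. Correction for GC content alone gave 226 higher and 144 lower, so that 61.1% of its calls were higher, against 26.3% without correction and 41.0% with the length term. Added after the data were seen, the correction gave 66 and 116 with 100 or more reads in both libraries, and 51 and 46 with a threshold of 1. The balance of calls turned for cholesterol synthesis (-1 to 1 under column totals and under GC content alone) and for oxidative phosphorylation (5 to -2 under the GC and length correction). These counts are higher minus lower calls. Beyond the GC trend and the stricter rules themselves, the cause was not tested. The lower depth of the library labelled MWT limits genes near 50 reads.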
